A study of Rattus norvegicus with 16 samples.

Results

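The enzymes described here remove superoxide and peroxides: the glutathione peroxidases Gpx1, Gpx2, Gpx3 and Gpx4, the superoxide dismutases Sod1, Sod2 and Sod3, catalase (Cat), and the peroxiredoxins Prdx1 and Prdx6. They were chosen by symbol. A gene was measured by the probe set that the array's annotation gives to that symbol and no other, and where there were several, by the one with the highest mean over the 16 arrays. By that rule 9 of the 10 genes had a value, among 11434 genes with a value in the series. The only probe set that names Prdx1 names a second gene as well, so Prdx1 has no value here.

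Liver RNA of 16 male F344 rats, an inbred strain, was measured on Affymetrix RG-230 PM arrays, with 1 array per rat and 4 rats in each of 4 groups. Rats were aged 4 weeks by their labels and were kept on their diet, water and air for 3 weeks. Control rats on the normal diet ate basal rodent chow, drank dehydrogenized water and breathed plain air. Hydrogen rats on the normal diet ate the same chow, drank hydrogen-rich water with 0.7 mM dissolved hydrogen and breathed air with 2% hydrogen. Control rats on the CDAA diet ate a diet of defined amino acids that lacks choline, with the water and air of the controls, and hydrogen rats on the CDAA diet ate that diet with the hydrogen water and hydrogen air. The control water was itself hydrogen-rich water from which the gas had been stirred out, so all groups drank electrolyzed water. The comparison diet is chow and not a purified diet with choline, so the diets differ in more than choline. Water and air were changed together, so the 2 routes of hydrogen cannot be told apart.

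The superoxide dismutases turn superoxide into hydrogen peroxide, Sod1 with copper and zinc in the cytosol, Sod2 with manganese in mitochondria and Sod3 with copper and zinc outside the cell. Catalase, in peroxisomes, splits hydrogen peroxide into water and oxygen, while glutathione peroxidases reduce it at the expense of glutathione and peroxiredoxins reduce it at a cysteine of their own. Gpx1 to Gpx4 carry selenocysteine at the active site. A choline-deficient diet impairs the export of fat from hepatocytes and is a common model of fatty liver disease, and molecular hydrogen has been studied as an antioxidant, which makes these enzymes a natural readout of the 2 treatments.

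The promoters of Gpx2 and Sod2 are shown because, of the 7 enzymes with a RefSeq promoter, only these 2 held a match to TGACNNNGC. Those letters were searched as the core of the antioxidant response element, the site bound by the transcription factor NRF2. Gpx2 passed for the diet and Sod2 did not. Each is the stretch of 250 bases before the transcription start on the GRCr8 build, written 5′ to 3′ on the gene's own strand, and the capitals mark the match to TGACNNNGC, searched on both strands. The Gpx2 window is chr6:101230034-101230283 and the Sod2 window is chr1:50050169-50050418, both on the minus strand.
Gpx2: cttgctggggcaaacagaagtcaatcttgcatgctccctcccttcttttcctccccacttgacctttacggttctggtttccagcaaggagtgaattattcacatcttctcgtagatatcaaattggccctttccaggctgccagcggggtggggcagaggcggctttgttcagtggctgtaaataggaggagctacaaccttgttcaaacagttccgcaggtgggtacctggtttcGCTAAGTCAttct
Sod2: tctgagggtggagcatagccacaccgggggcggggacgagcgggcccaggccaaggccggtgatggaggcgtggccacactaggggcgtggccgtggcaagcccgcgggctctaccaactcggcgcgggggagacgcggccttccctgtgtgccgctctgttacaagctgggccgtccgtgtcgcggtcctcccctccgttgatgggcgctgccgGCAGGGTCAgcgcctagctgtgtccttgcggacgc
Both matches lie on the opposite strand, where they read TGACTTAGC for Gpx2, 13 to 5 bases before the start, and TGACCCTGC for Sod2, 35 to 27 bases before it. Of 33469 promoter windows of this length, 10.1% held a match, and of 27457 genes with a window 11.0% held one in any of theirs. The base before TGAC, which the search left free, is A for Gpx2 and C for Sod2. A match describes letters and not a bound site. Windows of Gpx1, Gpx3, Gpx4, Sod1 and Cat held no match, which says only that these letters are not in those 250 bases.

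Deposited values were log2 signals, so a difference of 1 is a doubling. A gene was counted as changed when its p-value in limma, adjusted by Benjamini-Hochberg over 22634 probe sets, was under 0.05, and a gene's error is the standard error (SE) of the fit over all 16 arrays. The diet moved much of the array: 35.5% of probe sets were called in control rats (4760 higher and 3267 lower) and 44.8% in hydrogen rats (5778 higher and 4371 lower). That split depended on how arrays were scaled. In control rats it was 3941 higher and 3825 lower after a second quantile normalization, 5046 and 2992 with each array centred on its median, and 3686 and 5274 with arrays centred on the median of the tested probe sets, and in hydrogen rats it was 4560 and 5006, 6042 and 3941, and 4220 and 8167. Replicate 4 of the control rats on the normal diet stood apart. On the first principal component it lay at -13.44 where the other 3 arrays of its group lay between -35.09 and -32.28 and the CDAA arrays between 23.85 and 40.05. Hepatocyte markers gave a summed signal of 54700 to 57400 on all 16 arrays, lowest in hydrogen rats on the CDAA diet (54700 to 55700). All 9 lay above the detection line of 3.68 on at least 1 array of every group, so the labelled tissue shows its markers. For the diet 1 rose and 1 fell in control rats, beside 27.3% of all genes higher and 13.3% lower. In hydrogen rats 1 rose and 2 fell, beside 32.1% and 17.3%. In RNA from whole tissue, fewer cells of a type and less RNA per cell cannot be told apart.

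The CDAA diet did not move the enzymes as a block. In control rats 4 of the 9 changed, with Gpx2, Gpx3 and Sod3 higher and Cat lower, beside 40.6% of all genes (27.3% higher and 13.3% lower). In hydrogen rats 5 of the 9 changed, with Gpx2 and Sod3 higher and Gpx1, Sod1 and Cat lower, beside 49.5% of all genes (32.1% higher and 17.3% lower). The share of enzymes called was thus near the background. The median difference of the 9 was 0.10 in control rats and 0.04 in hydrogen rats, against 0.04 and 0.05 over all genes. Leaving out the array that stood apart left the counts at 4 and 5. All 9 enzymes lay above the detection line on all 16 arrays.

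**Figure D1:**
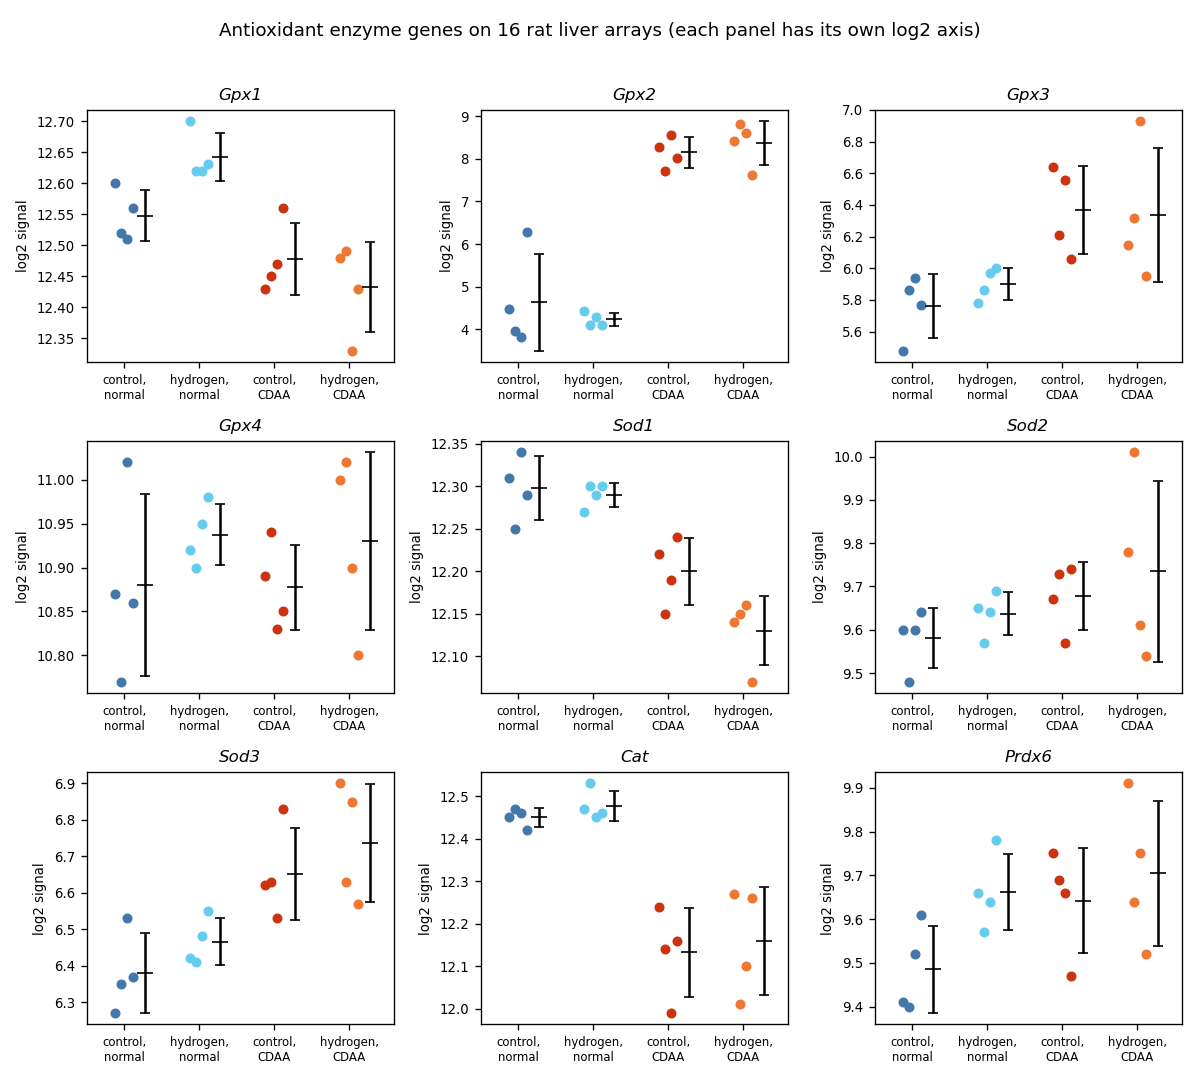
Log2 signal (vertical axis) of each of the 9 enzymes in 4 groups of 4 rats, with 1 point per array and a bar at the group mean; each panel has its own scale. Gpx2 lies between 3.83 and 6.29 on the normal diet and between 7.63 and 8.82 on the CDAA diet, and Cat between 12.42 and 12.53 against 11.99 to 12.27.

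Gpx2, the glutathione peroxidase best known from the lining of the gut, rose the most among the 9 enzymes. Its log2 signals on the normal diet were 4.47, 3.96, 3.83 and 6.29 in control rats and 4.43, 4.10, 4.29 and 4.11 in hydrogen rats. Under the CDAA diet they were 8.28, 7.72, 8.57 and 8.03 in control rats and 8.41, 8.82, 8.61 and 7.63 in hydrogen rats. Every CDAA array lay above every array of the normal diet, and the single raised value on the normal diet, 6.29, belongs to the array that stood apart. The diet raised Gpx2 by 3.51 on the log2 scale in control rats (SE 0.403, 11.4-fold, limma adjusted p = 1.51e-05, n = 4 per group) and by 4.14 in hydrogen rats (SE 0.403, 17.6-fold, limma adjusted p = 1.85e-06). Without that array the difference in control rats was 4.06, or 16.7-fold, with a limma adjusted p of 4.11e-08. By the size of its change Gpx2 ranked 11 of 11434 genes in both comparisons. Apart from 6.29, its signals on the normal diet ran from 3.83 to 4.47. The detection line was 3.68, and the median of all values on the arrays was 4.35. The fold changes of Gpx2 thus start from a signal near the detection line, and their size is uncertain. The scatter of Gpx2 within groups was also large, with a residual SD of 0.655, above that of 99.7% of the probe sets tested.

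Gpx2 is an epithelial enzyme, so markers of epithelia other than hepatocytes are given beside it. The summed signal of 8 bile duct and progenitor cell markers was 247 to 276 and 251 to 268 on the normal diet (control and hydrogen rats) and 331 to 574 and 447 to 606 on the CDAA diet. Epcam, a surface protein of bile duct epithelium, rose 1.76-fold in control rats and 2.20-fold in hydrogen rats, and Cldn7, a tight junction protein, rose 3.57-fold and 5.30-fold. Of the 6 markers that passed the filter, 4 rose in control rats and 3 in hydrogen rats, beside 27.3% and 32.1% of all genes higher. Krt7 and Krt19, the cytokeratins that define bile ducts, differed by -0.05 and 0.13 in control rats and by -0.08 and 0.08 in hydrogen rats, none of them called, and Sox9 and Cldn4 lay below the detection line on all 16 arrays. Of 6 intestinal markers, whose summed signal was 547 to 755 and 508 to 751 on the normal diet and 382 to 1360 and 666 to 1180 on the CDAA diet, Fabp2, the fatty acid binding protein of the gut, rose 5.00-fold in control rats and 4.99-fold in hydrogen rats. Cdh17, the brightest of these markers with log2 signals of 7.65 to 10.10, weighs most in their sum and was not called in either comparison. Nor were Vil1, Cdx1 and Cdx2, and Muc2, the gut mucin, was lower in hydrogen rats (-0.17). Vil1 (4.06 to 4.34), Cdx1 (3.44 to 3.77) and Krt7 (3.92 to 4.26) lay near the detection line, where a change is easily missed. The part of bile duct or progenitor cells in the rise of Gpx2 was not tested.

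Gpx3, the secreted peroxidase of plasma, gave log2 signals of 5.48, 5.86, 5.94 and 5.77 in control rats and 5.78, 5.86, 5.97 and 6.00 in hydrogen rats on the normal diet. With the CDAA diet it gave 6.64, 6.21, 6.56 and 6.06 in control rats and 6.15, 6.32, 6.93 and 5.95 in hydrogen rats. In control rats the CDAA arrays all lay above the chow arrays, while in hydrogen rats 1 CDAA array fell within the range of the chow arrays. The difference was 0.60 in control rats (SE 0.174, 1.52-fold, limma adjusted p = 0.0127), and 0.44 in hydrogen rats (SE 0.174, limma adjusted p = 0.0521), just outside the threshold. The second value passed with the replicate number as a block (limma adjusted p = 0.0303) and was 0.24 without replicate 3 of the hydrogen rats on the CDAA diet (0.189). The difference between these 2 differences was -0.17 (95% interval -0.69 to 0.35), so they were not shown to differ.

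Gpx1, the abundant cytosolic peroxidase of liver, moved little. Its log2 signals were 12.60, 12.52, 12.51 and 12.56 in control rats and 12.70, 12.62, 12.62 and 12.63 in hydrogen rats on the normal diet, and 12.43, 12.45, 12.47 and 12.56 and then 12.48, 12.49, 12.33 and 12.43 on the CDAA diet. In hydrogen rats all CDAA arrays lay below the chow arrays, and in control rats the groups overlapped. Gpx1 fell by 0.21 on the log2 scale in hydrogen rats (SE 0.0516, 1.16-fold lower, limma adjusted p = 0.00383), and the difference in control rats was -0.07 (95% interval -0.18 to 0.04, limma adjusted p = 0.315). The interaction, which asks whether the diet's effect differed with hydrogen, was -0.14 (95% interval -0.29 to 0.01, limma adjusted p = 0.576).

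Gpx4, which reduces lipid hydroperoxides within membranes and guards cells against ferroptosis, showed no detectable diet effect. Its group means were 10.88 ± 0.104 (SD, n = 4) in control rats and 10.94 ± 0.0350 in hydrogen rats on the normal diet, and 10.88 ± 0.0486 and 10.93 ± 0.101 on the CDAA diet. The diet differences were 0.00 (95% interval -0.13 to 0.13) and -0.01 (95% interval -0.14 to 0.12), and the groups overlapped. Both intervals end within 0.14 of 0 on the log2 scale. A further Gpx4 probe set did not pass the filter on dim probe sets.

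Sod1 was lower on the CDAA diet in hydrogen rats, by a small amount. Its log2 signals on the normal diet were 12.31, 12.25, 12.34 and 12.29 in control rats and 12.27, 12.30, 12.29 and 12.30 in hydrogen rats. Arrays of the CDAA diet gave 12.22, 12.15, 12.19 and 12.24 in control rats and 12.14, 12.15, 12.16 and 12.07 in hydrogen rats. Every CDAA array lay below every chow array. The fall was 1.12-fold in hydrogen rats (log2 difference -0.16, SE 0.0448, limma adjusted p = 0.00875), and it was lost after a second quantile normalization (-0.07, limma adjusted p = 0.271). In control rats the difference was -0.10 (SE 0.0448, limma adjusted p = 0.103) and did not pass, and it turned to 0.01 under that normalization. With arrays centred on the median of the tested probe sets it was -0.16 and passed (limma adjusted p = 0.0109). The residual SD of Sod1 was 0.0347, lower than in all but 0.128% of the probe sets tested.

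Sod2, the mitochondrial enzyme, gave group means of 9.58 ± 0.0693 (SD, n = 4) and 9.64 ± 0.0499 on the normal diet and of 9.68 ± 0.0780 and 9.73 ± 0.209 on the CDAA diet, in control and hydrogen rats. The groups overlapped, and the diet difference was 0.10 in both (95% interval -0.08 to 0.27, limma adjusted p = 0.389 in control rats and 0.353 in hydrogen rats). A second Sod2 probe set gave -0.03 and 0.01 and was not called either. The Sod2 promoter, printed above, holds a match to TGACNNNGC, and whether that match is used was not tested.

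Sod3, the extracellular enzyme, gave log2 signals of 6.27, 6.35, 6.53 and 6.37 in control rats and 6.42, 6.41, 6.48 and 6.55 in hydrogen rats on the normal diet. CDAA arrays gave 6.62, 6.63, 6.53 and 6.83 in control rats and 6.90, 6.63, 6.85 and 6.57 in hydrogen rats. The groups met at 6.53 in control rats and did not overlap in hydrogen rats. Sod3 rose by 0.27 in both (SE 0.0837, 1.21-fold, limma adjusted p = 0.0184 in control rats and 0.015 in hydrogen rats). The calls ended after a second quantile normalization (0.17 with adjusted p = 0.128 in control rats, and 0.11 with 0.277 in hydrogen rats, by limma) and with arrays centred on the median of the tested probe sets (0.21 with 0.0569, and 0.17 with 0.0878). In control rats the call also ended without replicate 4 of the CDAA group (0.21, limma adjusted p = 0.0658) or replicate 1 of the chow group (0.24, 0.061), and in hydrogen rats without replicate 1 of the CDAA group (0.22, 0.0517).

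Sod3 and Gpx3 act outside the cell, and markers of stellate cells and macrophages were higher on the same diet. The summed signal of 9 stellate cell and fibroblast markers was 1840 to 2910 in control rats and 2040 to 2210 in hydrogen rats on the normal diet, and 3280 to 4110 and 3620 to 4240 on the CDAA diet. Of these 9 markers 5 rose in control rats and 7 in hydrogen rats. Marker counts here stand beside 27.3% of all genes higher and 13.3% lower in control rats. In hydrogen rats those shares were 32.1% and 17.3%. The summed signal of 10 macrophage and Kupffer cell markers was 2400 to 3720 and 2910 to 3300 on the normal diet and 3900 to 5220 and 4200 to 6410 on the CDAA diet, where 5 rose and 1 fell in control rats and 7 rose in hydrogen rats. All markers of both lists lay above the detection line on at least 1 array of every group. Of 6 sinusoidal endothelial markers, with sums of 1040 to 1590, 1360 to 1590, 1270 to 1690 and 1490 to 1750 in the same order, 1 rose in control rats and 2 rose in hydrogen rats, near or below the share of all genes. Of 7 lymphocyte and NK cell markers, with sums of 150 to 172, 150 to 161, 143 to 149 and 129 to 163, 1 rose and 2 fell in both comparisons. The 1 neutrophil marker that passed the filter, S100a9, fell in control rats. The part of these cells in the values of Sod3 and Gpx3 was not tested.

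Catalase fell by the same amount with and without hydrogen. Its log2 signals on the normal diet were 12.45, 12.47, 12.46 and 12.42 in control rats and 12.47, 12.53, 12.45 and 12.46 in hydrogen rats. Those on the CDAA diet were 12.24, 12.14, 11.99 and 12.16 in control rats and 12.27, 12.01, 12.10 and 12.26 in hydrogen rats. The highest CDAA array lay below the lowest chow array. The difference was -0.32 in both comparisons (SE 0.0651, 95% interval -0.46 to -0.18, 1.25-fold lower, limma adjusted p = 0.00135 in control rats and 0.00103 in hydrogen rats). It passed under every scaling tried, at -0.22 (limma adjusted p = 0.0248) and -0.23 (0.0176) after a second quantile normalization and at -0.38 and -0.42 with arrays centred on the median of the tested probe sets. Red blood cells carry much catalase protein. Of 3 red cell markers, with summed signals of 53.9 to 69.2 and 52.4 to 60.3 on chow and 41.1 to 44.0 and 38.9 to 55.7 on the CDAA diet, 2 fell in control rats (Slc4a1 by 0.74 and Alas2 by 0.58) and 1 in hydrogen rats (Slc4a1 by 0.46). Among all genes 13.3% were lower in control rats and 17.3% in hydrogen rats. The part of red blood cells in the fall of Cat was not tested.

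Prdx6, a peroxiredoxin that also has phospholipase activity, gave log2 signals of 9.41, 9.40, 9.52 and 9.61 in control rats and 9.66, 9.57, 9.64 and 9.78 in hydrogen rats on the normal diet. CDAA values were 9.75, 9.69, 9.66 and 9.47 in control rats and 9.91, 9.64, 9.75 and 9.52 in hydrogen rats. The groups overlapped. The diet difference was 0.16 in control rats (95% interval -0.02 to 0.34, limma adjusted p = 0.162) and 0.04 in hydrogen rats (95% interval -0.14 to 0.22, limma adjusted p = 0.702).

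**Figure D2:**
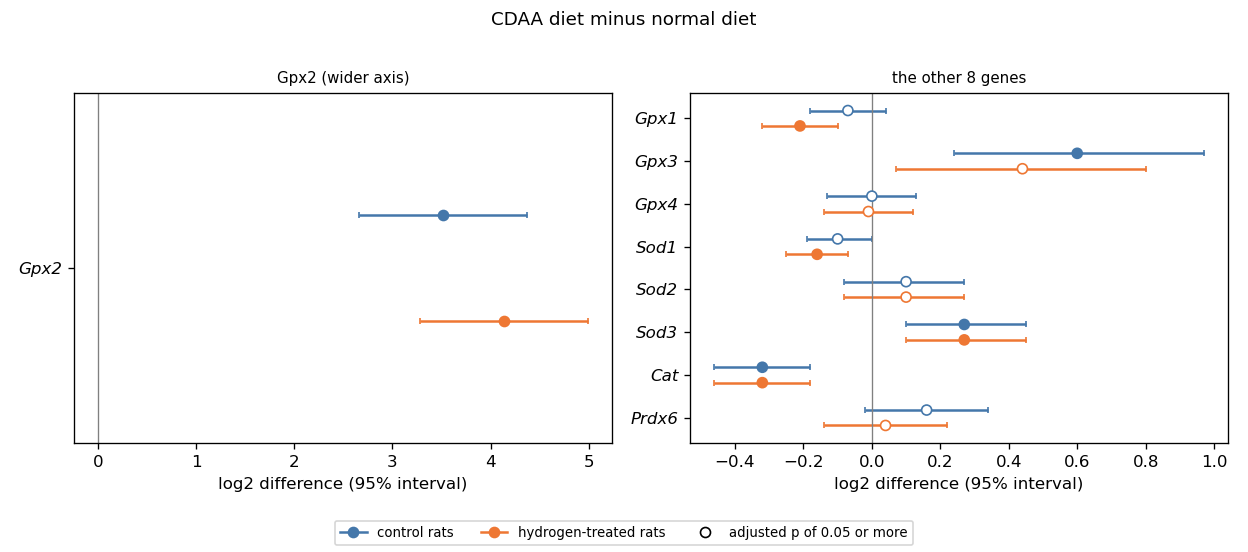
Difference in log2 signal between the CDAA and the normal diet (horizontal axis) for the 9 enzymes in control rats and in hydrogen rats, with 95% intervals from the fit; filled points have an adjusted p under 0.05. Gpx2 has a scale of its own, with 3.51 and 4.14, while the other 8 enzymes lie between -0.32 and 0.60.

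Groups that did not overlap were counted as a second reading of the diet effect. In control rats 4 of the 9 enzymes had CDAA arrays all above or all below the chow arrays (Gpx2, Gpx3, Sod1 and Cat), beside 33.4% of the probe sets tested. In hydrogen rats there were 5 (Gpx2, Gpx1, Sod1, Sod3 and Cat), beside 39.2%.

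None of the 9 enzymes passed for hydrogen by limma, on either diet. On the normal diet 0 of 9 passed, the same number had an unadjusted p under 0.05, and 0.00875% of all genes and 0.00884% of probe sets passed (1692 probe sets had an unadjusted p under 0.05). On the CDAA diet 0 of 9 passed, again with none at an unadjusted p under 0.05, beside 0.376% of all genes and 0.314% of probe sets (2617 probe sets had an unadjusted p under 0.05). The limma fit with a mean-variance trend and robust settings called none of the 9 either. The lowest unadjusted p was 0.0518, for Prdx6 on the normal diet, where its level was higher by 0.18 (95% interval 0.00 to 0.36, limma adjusted p = 0.672). Gpx1 on the normal diet was the only enzyme whose hydrogen arrays did not overlap the controls: all 4 lay above, by 0.10 in the mean (95% interval -0.01 to 0.20, limma adjusted p = 0.723), beside 5.65% of probe sets with groups apart. On the CDAA diet none of the 9 had groups apart, beside 3.61% of probe sets.

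The intervals show what effects of hydrogen these 4 rats per group leave possible. For Gpx2 they ran from -1.26 to 0.45 on the normal diet and from -0.64 to 1.07 on the CDAA diet, around differences of -0.41 and 0.22. Without the array that stood apart the difference on the normal diet was 0.15, between signals near the detection line. For Gpx3 they ran from -0.23 to 0.51 and from -0.40 to 0.34. The other 7 enzymes had narrower intervals. For Cat the difference was 0.03 on both diets (95% interval -0.11 to 0.17), for Sod2 0.06 on both (-0.12 to 0.23), and for Sod3 0.08 on both (-0.09 to 0.26). For Sod1 it was -0.01 (-0.10 to 0.09) on the normal diet and -0.07 (-0.16 to 0.02) on the CDAA diet, and for Gpx4 0.06 (-0.07 to 0.19) and 0.05 (-0.08 to 0.18). For Gpx1 and Prdx6 on the CDAA diet it was -0.04 (-0.15 to 0.06) and 0.06 (-0.12 to 0.24).

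The interaction of hydrogen and diet was not called for any of the 9 by limma, with none at an unadjusted p under 0.05, beside 0.00442% of probe sets called (2066 had an unadjusted p under 0.05). It was 0.62 for Gpx2 (95% interval -0.58 to 1.83), and 0.07 without the array that stood apart. For Sod2, Sod3 and Cat it was 0.00, with intervals of -0.25 to 0.25, -0.25 to 0.25 and -0.20 to 0.20. The fall of Gpx1 and Sod1 that passed in hydrogen rats and not in control rats is therefore not shown to depend on hydrogen: the interaction was -0.06 for Sod1 (95% interval -0.20 to 0.07, limma adjusted p = 0.799), and the value for Gpx1 is given above. The diet and hydrogen comparisons share groups, so their values are not independent of one another.

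**Figure D3:**
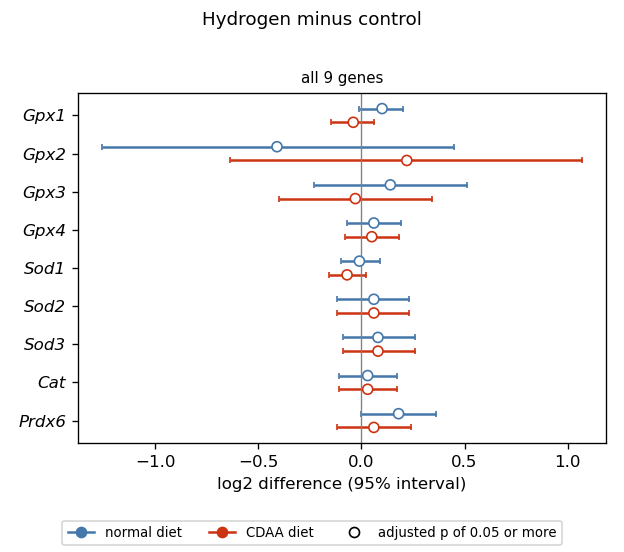
Difference in log2 signal between hydrogen and control rats (horizontal axis) for the 9 enzymes on each diet, with 95% intervals; open points have an adjusted p of 0.05 or more. All 18 points are open, and the widest interval, for Gpx2 on the normal diet, runs from -1.26 to 0.45.

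Genes that work beside the 9 enzymes were counted in 11 lists, some of which share genes. Each count stands beside 27.3% of all genes higher and 13.3% lower in control rats, and 32.1% higher and 17.3% lower in hydrogen rats. Among 6 other peroxidases, Gpx7, an enzyme of the endoplasmic reticulum, rose 1.95-fold in control rats (limma adjusted p = 0.000119) and 1.99-fold in hydrogen rats, and Prdx2, a cytosolic peroxiredoxin, rose 1.25-fold and 1.33-fold. Prdx5, found in mitochondria and peroxisomes, fell 1.37-fold and 1.49-fold, and Gpx8 rose 1.24-fold in hydrogen rats. That made 2 of 6 higher and 1 lower in control rats and 3 and 1 in hydrogen rats, with medians of 0.18 and 0.17. Of 12 thioredoxin and glutaredoxin genes 5 rose in control rats and 4 in hydrogen rats and none fell, with medians of 0.12 and 0.11. The share that rose was 41.7% in control rats and 33.3% in hydrogen rats, the latter near that of all genes. Srxn1, which repairs overoxidized peroxiredoxins, rose 2.72-fold (limma adjusted p = 0.00168) and 3.15-fold (0.000445), with groups that overlapped in control rats. Glrx3 rose 1.51-fold and 1.60-fold.

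Genes that supply the peroxidases went both ways. Of 10 genes of glutathione synthesis and turnover 5 rose and 2 fell in control rats, and 3 rose and 1 fell in hydrogen rats. The share that rose was 50.0% in control rats, and in hydrogen rats it was near that of all genes. Gclc and Gss, which make glutathione in sequence, rose 1.68-fold and 1.93-fold in control rats (limma adjusted p = 9.36e-05 and 7.21e-06) and 1.59-fold and 2.05-fold in hydrogen rats. Chac2, which degrades glutathione, fell 1.36-fold and 1.41-fold, while Chac1, with the same activity, rose 3.42-fold in control rats with groups that overlapped and differed by -0.31 in hydrogen rats (95% interval -1.19 to 0.57, limma adjusted p = 0.564). Its interaction was -2.08 (95% interval -3.32 to -0.84) and did not pass (limma adjusted p = 0.332). Of 7 NADPH-producing enzymes 2 rose and 3 fell in control rats and 2 rose and 4 fell in hydrogen rats. Aldh1l1, a folate enzyme, was 1.98-fold and 2.11-fold lower, and Idh2 of mitochondria was 1.33-fold and 1.51-fold higher. Of 9 genes that deliver copper, zinc and manganese 3 rose and 1 fell in control rats and 2 rose and 2 fell in hydrogen rats. Ccs, the copper chaperone of Sod1, rose 1.17-fold and 1.32-fold, while Slc31a1, the copper importer, fell 1.33-fold and 1.39-fold. With arrays centred on the median of the tested probe sets 0 of these 9 rose and 2 fell in control rats. Under that scaling fewer probe sets were called higher and more lower over the whole array, as given above.

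Selenium use was likewise mixed. Of 14 other selenoproteins 6 rose and 3 fell in control rats and 5 rose and 2 fell in hydrogen rats, with medians of 0.04 and -0.01. Selenon, Selenos, Selenoh and Selenom rose 1.84-fold, 1.81-fold, 1.61-fold and 1.56-fold in control rats and 1.98-fold, 1.61-fold, 1.90-fold and 1.91-fold in hydrogen rats. Selenon and Selenos are proteins of the endoplasmic reticulum. Of 9 genes of selenoprotein synthesis 1 rose and 3 fell in control rats, and 3 rose and 3 fell in hydrogen rats. Secisbp2, which binds the selenocysteine insertion element, rose 1.37-fold and 1.41-fold, and Scly, which frees selenium from selenocysteine, fell 1.31-fold and 1.52-fold. Without the array that stood apart only 1 of the 9 synthesis genes fell in control rats, and with arrays centred on the median of the tested probe sets 6 of the 14 selenoproteins fell in hydrogen rats. That centring raised the number of lower calls over the whole array as well, as given above.

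Enzymes that produce hydrogen peroxide were lower on the CDAA diet. Of 12 such oxidases 9 fell and 0 rose in control rats, and 8 fell and 1 rose in hydrogen rats, beside 13.3% and 17.3% of all genes lower, with medians of -0.34 and -0.52 against 0.04 and 0.05 over all genes. Hao2, a peroxisomal hydroxyacid oxidase, was 3.08-fold lower in control rats and 3.77-fold lower in hydrogen rats. Acox2, which oxidizes bile acid precursors in peroxisomes, was 2.19-fold and 1.93-fold lower. Dao, the D-amino acid oxidase, was 2.16-fold and 1.83-fold lower, and Aox1, the aldehyde oxidase of the cytosol, 1.94-fold and 1.67-fold. Of 17 genes of the peroxisome's membrane and assembly 7 fell and 1 rose in control rats and 5 fell and 3 rose in hydrogen rats, with medians of -0.15 and -0.16. Pxmp2, a peroxisomal membrane channel, was 1.94-fold and 1.98-fold lower, and Pex11a, which promotes peroxisome division, was 1.67-fold higher in hydrogen rats. Without the array that stood apart the oxidases gave 8 of 12 lower in control rats. After a second quantile normalization 9 of 12 and 8 of 12 were lower, and 10 of 17 and 9 of 17 of the peroxisomal genes. That normalization raised the number of lower calls over the whole array as well, as given above.

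NADPH oxidase subunits and NRF2 targets were counted as well. Of 6 oxidase subunits 2 rose and 2 fell in control rats and 4 rose and 1 fell in hydrogen rats. Cybb, the catalytic subunit of phagocytes, rose 1.92-fold and 2.69-fold beside the macrophage markers given above, and Nox4 was 2.47-fold and 2.53-fold lower. A second quantile normalization left 1 higher and 1 lower in control rats. Of 19 other NRF2 targets 12 rose and 0 fell in control rats and 12 rose and 1 fell in hydrogen rats, beside 27.3% and 32.1% of all genes higher, with medians of 0.49 and 0.67. Gsta3, a glutathione S-transferase, rose 5.75-fold (limma adjusted p = 0.00414) with groups that overlapped in control rats, and 10.7-fold (0.000331) in hydrogen rats. Abcc3, a conjugate exporter, rose 2.30-fold and 4.44-fold, and Akr7a3, an aldehyde reductase, 2.16-fold and 2.67-fold. The NRF2 targets gave 12 of 19 higher in control rats also without the array that stood apart. Gpx2, itself a known NRF2 target, was not among these 19.

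**Figure D4:**
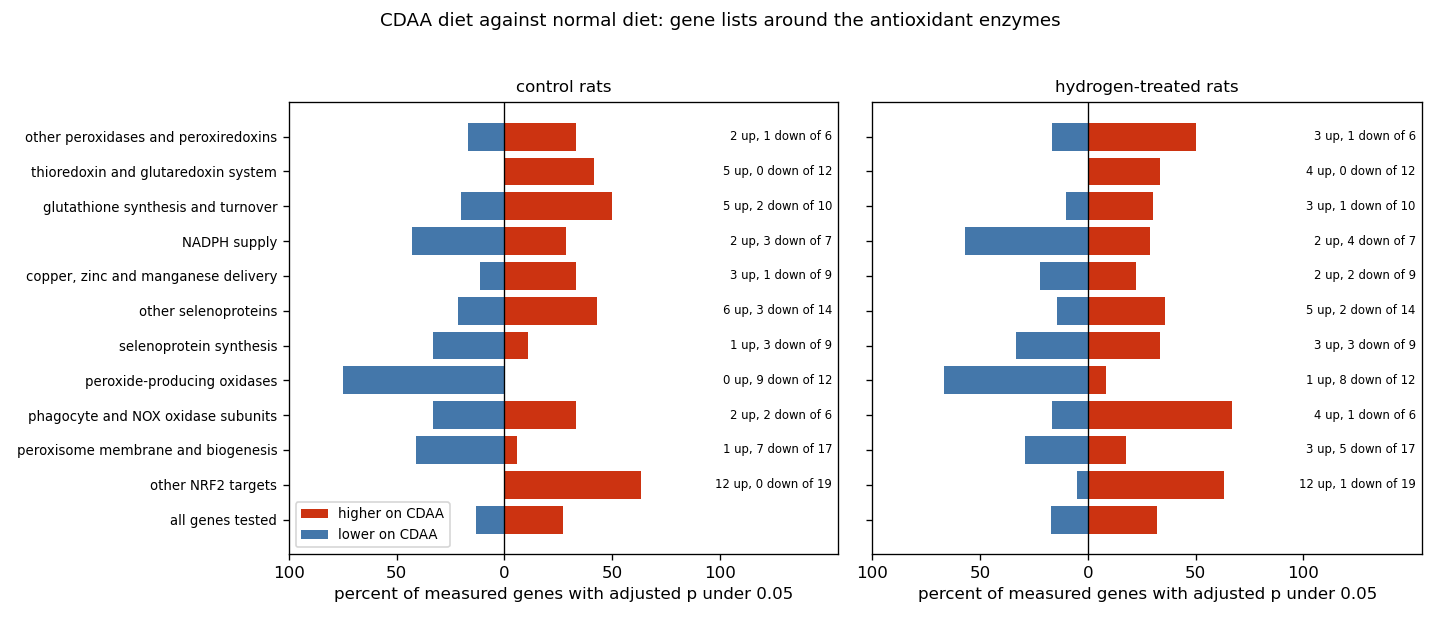
Percent of the measured genes of each list that passed on the CDAA diet against the normal diet, higher to the right and lower to the left of 0, in control rats (left panel) and hydrogen rats (right panel), with all genes as the bottom bar and the counts in each row. Peroxide-producing oxidases show 9 of 12 and 8 of 12 lower, and NRF2 targets 12 of 19 higher in both panels.

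In the comparisons of hydrogen with control, 2 genes of the 11 lists passed, both on the CDAA diet. They were 1 of 10 glutathione genes and 1 of 19 NRF2 targets. Of all genes 0.376% passed on that diet and 0.00875% on the normal diet. Oplah, which returns oxoproline of the glutathione cycle to glutamate, rose by 0.56 (SE 0.102, 1.47-fold, limma adjusted p = 0.0283), and Osgin1, an NRF2 target, fell by 0.96 (SE 0.167, 1.95-fold lower, limma adjusted p = 0.0225). In both genes the hydrogen arrays did not overlap the controls, as in 3.61% of probe sets on that diet. The NRF2 targets as a list did not follow Osgin1: 15 of the 19 differences were above 0, with a median of 0.34 against 0.01 over all genes, and none of the 15 passed. Among them Hmox1, the heme oxygenase, differed by 0.44 with all hydrogen arrays above the controls (limma adjusted p = 0.114), and Abcc3 by 0.90 with groups that overlapped (limma adjusted p = 0.247). Chac1 had the widest difference of the glutathione list, -2.03 (SE 0.415, 4.08-fold lower, limma adjusted p = 0.0506) with all hydrogen arrays below the controls. It passed without the array that stood apart (limma adjusted p = 0.0489), without replicate 2 of the control rats on the CDAA diet (0.00188), with the replicate block (0.0306), with the filter at the 50th percentile (0.0459) and with arrays centred on the median of the tested probe sets. Its adjusted p by limma reached 0.189 without replicate 4 of the control rats on the CDAA diet. The call of Oplah ended without replicate 1, 3 or 4 of the control rats on the CDAA diet (limma adjusted p = 0.0786, 0.0982 and 0.0783) or replicate 1 of the hydrogen rats (0.096), and that of Osgin1 without the same 3 control arrays (0.0706, 0.0726 and 0.0696) or replicate 2 of the hydrogen rats (0.052). None of the list genes passed on the normal diet or in the interaction. Far fewer probe sets passed on the CDAA diet with only the 2 groups in the fit, as given below.

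Genes whose signal followed an enzyme most closely over the 16 arrays are given as a description. The arrays fall into diet groups, so a gene with a strong diet effect will follow others of that kind. Gpx2 was followed by Cd36, the fatty acid transporter (r = 0.993), Reep5 (r = 0.992) and S100a10 (r = 0.991). Cat was followed by Crp, the C-reactive protein (r = 0.970), Fitm2, a lipid droplet protein (r = 0.964), and Slc22a8, an organic anion transporter (r = 0.956). Sod1 was followed by Cyp4f6 (r = 0.942), Ctsh (r = 0.926) and Zfp110 (r = 0.925), Gpx3 by Syngr2 (r = 0.922), Dnajc10 (r = 0.913) and Chd4 (r = 0.909), and Gpx1 by Gip (r = 0.896), Tst (r = 0.892) and Hpd (r = 0.882). For Sod3, Prdx6, Sod2 and Gpx4 the closest genes were Mast2 (r = 0.886), Myl12b (r = 0.873), Rbm38 (r = 0.859) and Lmbr1l (r = 0.832).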

How the data were processed

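Livers lay in RNAlater, RNA came from RNeasy columns, and a 3'IVT Express kit turned it into biotinylated aRNA, per the labels' protocols. Expression Console and RMA stand in the submitters' processing notes (which version of each: not given in the sources used here). What the authors deposited are log2 signals, 1 per probe set and array, from 2.42 to 13.73 with array medians of 4.33 to 4.38. RMA makes arrays alike in distribution, so a shift of all transcripts would not show, and small differences of bright probe sets may be compressed. Strip and scan were not given, so no batch was tested.

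From these log2 values, 97 array controls of 31139 probe sets were left out, and 22634 that exceeded the 30th percentile (3.68) on at least 4 arrays were tested. The annotation gave 1 symbol to 19068 probe sets and several to 573, and did not list 11401. A model with 1 mean per group was fitted in limma 3.58.1 (R 4.3.3) with eBayes and no replicate block, and adjusted within each contrast. The labels give the arrays as separate rats, and 4 per group limits the precision. The fit was tested on simulated data. Figures were drawn with matplotlib 3.10.9. The enzymes and lists were chosen with earlier results of these data known. Named were all 10 enzymes, up to 4 called genes per list and contrast with the largest change (or 2 where none passed) and the 3 genes that correlate best with each enzyme; marker genes, and values of a named gene in other contrasts, were chosen after they were seen. Markers' summed signals are sums of linear values, over markers on the array. Alternatives were other filters, scalings, spread estimates and probe set rules, a replicate block, and leaving out each array; centring on tested probe sets and list values under other settings were added after seeing the data. Promoters came from RefSeq.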

Additional observations from a re-analysis of the deposited data

Results flagged for a closer look

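Gpx1 in hydrogen rats on the normal diet had 1 array flagged within its group, by a small step: replicate 1 gave a log2 signal of 12.70, where the other 3 lay between 12.62 and 12.63. The gap was 0.875 of the group's range, above Dixon's critical ratio of 0.829 for 4 samples. Of 36 groups tested (9 enzymes in 4 groups) it was the only one, and chance alone marks about 1 in 20.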

How the results depend on the processing

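Most values kept their direction and their side of the threshold. Reversed signs concerned uncalled differences: after a second quantile normalization Gpx1 and Sod1 in control rats gave a diet difference of 0.01 each and Gpx4 in hydrogen rats 0.03; with arrays centred on their median Gpx4 in hydrogen rats gave 0.01; and with arrays centred on the median of the tested probe sets Prdx6 gave a diet difference of -0.06 in hydrogen rats and Sod1 a hydrogen difference of 0.01 on the normal diet. Differences under 0.005 were read as having no sign. The second quantile normalization left 3 enzymes called for the diet in hydrogen rats instead of 5. The calls that ended for Sod1 and Sod3 are given with those genes, and the cause was not tested. Gpx3 in hydrogen rats passed with arrays centred on their median (limma adjusted p = 0.0478), with the filter at the 50th percentile (0.0481) and without 5 of the 16 arrays, each left out in turn.

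For hydrogen on the normal diet 2 probe sets were called, and 17 with only the 2 groups in the fit, 5 with a trend and robust settings and 1 with the replicate block. On the CDAA diet 71 were called, and 2 with only the 2 groups. The interaction had 1, and 0 with the block. The fit with the replicate number as a block called 8208 and 10345 probe sets for the diet and brought Gpx3 in hydrogen rats past the threshold (limma adjusted p = 0.0303), with no other enzyme's call changed. Arrays that share a number deviated together only weakly (24 pairs, mean r 0.06, from -0.13 to 0.33), where different numbers gave a mean r of -0.02. Of the 16 arrays 11 correlated best with one of their own number, which 3 of the 12 arrays of other groups carry. The labels name no shared litter, day or batch behind the numbers, so this is a hint from the data and not from the design.

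With each array left out in turn, probe sets called ranged from 0 to 11 for hydrogen on the normal diet, from 21 to 346 on the CDAA diet and from 0 to 21 for the interaction. Ranges that crossed 0 were, for the diet in control rats, -0.04 to 0.04 for Gpx4; for the diet in hydrogen rats, -0.04 to 0.04 for Gpx4 and -0.03 to 0.10 for Prdx6; for hydrogen on the normal diet, -0.67 to 0.15 for Gpx2 and -0.02 to 0.01 for Sod1; for hydrogen on the CDAA diet, -0.02 to 0.08 for Cat, -0.23 to 0.10 for Gpx3, -0.01 to 0.12 for Prdx6 and -0.03 to 0.12 for Sod2; and for the interaction, -0.05 to 0.04 for Gpx4, -0.05 to 0.05 for Cat, -0.09 to 0.07 for Sod2 and -0.05 to 0.06 for Sod3. The diet difference of Gpx3 in hydrogen rats ran from 0.24 to 0.56.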
